A study of Mus musculus with 8 samples.

Results

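The genes described here are 46 genes of ribosome biogenesis and of RNA polymerase I, measured in J774.1 cells, a macrophage-like line from a BALB/c mouse. They were taken by symbol from a list of genes by function. The rule itself uses no measured difference, but the list was chosen with earlier results of these data known. Counts over the members therefore carry no p. All 46 were on the array, among 21528 genes tested, of which 12937 had a symbol. By role, 6 belong to RNA polymerase I or its initiation factors, 7 to the small nucleolar ribonucleoproteins (snoRNPs), 5 to the nucleolar chaperones and helicases, 14 to the small subunit and 14 to the large subunit. The study used 8 Agilent arrays labelled with 1 dye, in 4 groups of 2 biological replicates. Cells had isorhamnetin at 10 µM for 6 h (labelled IR), tamarixetin at 10 µM for 6 h (TAM), Torin1 at 1 µM for 6 h (Torin), or were controls (Ctrl), whose handling the labels do not describe further. The first 2 compounds are isomeric O-methylated forms of the plant flavonol quercetin that differ in the hydroxyl group bearing the methyl group, and Torin1 is an inhibitor of the kinase mTOR. All groups come from this 1 cell line, and the labels call the replicates biological without saying whether they were separate cultures, so the errors measure the spread between these samples.

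Ribosomes are assembled in the nucleolus. RNA polymerase I transcribes the long precursor of the ribosomal RNAs, snoRNPs modify and help cut it, and separate sets of assembly factors build the small and the large subunit. mTOR signalling is known to promote ribosome production in growing cells, in part by keeping the initiation factor Rrn3 active.

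A level is given here as the log2 processed signal less that of the array's 75th percentile, so a value of 0 is that percentile and a difference of 1 is a doubling. That percentile lay at a signal of 340 to 385 on the IR arrays, 363 and 403 on the TAM arrays, 358 and 371 on the Torin arrays and 318 and 367 on the Ctrl arrays. Each of the 46 members was well above background on all 8 arrays, and none was saturated. Replicate arrays correlated at 0.992 to 0.997 over all genes tested. Of 9 macrophage markers, 8 were well above background on every array and Mrc1 was on none. Their summed signal, as a multiple of the percentile, was 631 to 694 in IR, 657 to 664 in TAM, 716 to 726 in Torin and 702 to 714 in Ctrl cells. The summed signal of 4 T cell markers was far smaller and lower with Torin1, at 3.89 to 4.61 in IR, 3.79 to 4.58 in TAM, 3.16 to 3.54 in Torin and 5.21 to 5.66 in Ctrl cells; Cd3e and Cd4 were above background on all 8 arrays and Cd8a on none. None of the B cell, epithelial or fibroblast markers was above background on all 8 arrays. Position on the slide and group cannot be told apart, because IR and Ctrl shared 1 row of the slide and TAM and Torin the other, each group in columns of its own.

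Start-site windows from RefSeq (assembly GRCm38.p6, 250 bases before and 50 after the annotated start) were found for 41 of the 46 members and for 27025 genes in all. They were searched on both strands for the E-box CACGTG, the letters bound by the Myc and MiT/TFE families, for CCGGAAG, a core recognised by ETS factors, and for the GC box GGGCGG. The E-box was in the windows of 9 of the 41 members (22.0%), against 11.5% of the 10346 tested genes that had a window and 8.09% of all genes with one. CCGGAAG was in 15 of the 41 (36.6%), against 19.5% of tested genes and 9.93% of all. The GC box was in 31 of the 41 (75.6%), against 64.3% of tested genes and 38.2% of all. These are counts of letters and no test was made on them. Among the members lower with Torin1, 6 of 24 held an E-box and 10 of 24 held CCGGAAG, against 3 of 14 for each among those not called; of the 3 members higher with Torin1, 0 held an E-box and 2 held CCGGAAG. The 250 bases before the start are printed for 5 members that were chosen after the Torin1 values were seen. They are read in the direction of transcription, with every E-box or CCGGAAG that lies whole within them in capitals. The first is Rrn3 (chr16:13780449-13780698, plus strand), with 2 E-boxes that begin 215 and 48 bases before the start and with a CCGGAAG in its window that does not lie whole in the printed bases; the next is Polr1c (chr17:46248046-46248295, minus strand), with 1 CCGGAAG 42 bases before it. Then follow Noc4l (chr5:110653383-110653632, minus strand) and Nop16 (chr13:54590075-54590324, minus strand), with neither, and Grwd1 (chr7:45830790-45831039, minus strand), with 1 CCGGAAG 39 bases before the start and an E-box beyond it that is not shown.
Rrn3: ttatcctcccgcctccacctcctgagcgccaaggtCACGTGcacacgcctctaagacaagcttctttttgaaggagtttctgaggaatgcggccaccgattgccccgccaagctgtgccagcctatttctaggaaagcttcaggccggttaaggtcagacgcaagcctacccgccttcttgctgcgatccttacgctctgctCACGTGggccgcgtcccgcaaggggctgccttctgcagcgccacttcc
Polr1c: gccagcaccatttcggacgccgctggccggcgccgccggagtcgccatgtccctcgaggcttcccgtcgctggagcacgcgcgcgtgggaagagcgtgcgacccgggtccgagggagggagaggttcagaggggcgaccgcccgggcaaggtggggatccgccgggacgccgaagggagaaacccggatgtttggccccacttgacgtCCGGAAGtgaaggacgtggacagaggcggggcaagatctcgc
Noc4l: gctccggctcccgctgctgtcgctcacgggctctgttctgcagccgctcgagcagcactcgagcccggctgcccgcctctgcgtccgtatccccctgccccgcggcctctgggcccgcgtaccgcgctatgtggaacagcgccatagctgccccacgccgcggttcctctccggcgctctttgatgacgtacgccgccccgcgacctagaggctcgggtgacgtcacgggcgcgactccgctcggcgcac
Nop16: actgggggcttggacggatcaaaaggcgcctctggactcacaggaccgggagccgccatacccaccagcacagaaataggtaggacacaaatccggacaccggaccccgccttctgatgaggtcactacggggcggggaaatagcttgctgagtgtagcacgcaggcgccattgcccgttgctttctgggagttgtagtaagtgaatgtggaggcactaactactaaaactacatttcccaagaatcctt
Grwd1: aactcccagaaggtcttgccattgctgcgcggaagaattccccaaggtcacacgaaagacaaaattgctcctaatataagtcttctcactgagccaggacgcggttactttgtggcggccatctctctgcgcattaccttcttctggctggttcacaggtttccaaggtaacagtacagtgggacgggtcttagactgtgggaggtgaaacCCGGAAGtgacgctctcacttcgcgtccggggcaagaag

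Comparing Torin1-treated with control cells asks which of these transcripts differed after 6 h with the inhibitor. The activity of mTOR itself was not measured. Most of the members fell by a modest amount. Of the 46, 27 were lower and 3 were higher in Torin than in Ctrl cells (limma, Benjamini-Hochberg adjusted p under 0.05 over all genes tested), where 30.1% of all genes tested were lower and 19.3% higher. In either direction 30 of 46 were called, against 49.4% of all genes. Among the 12641 tested genes with a mean level at or above that of the lowest member, 40.2% were lower and 17.6% higher. The lowest member had a mean level of -0.68 and the median member 4.64, so these genes were not matched in level to the members. The median log2 difference of the members was -0.28 and that of all genes tested was -0.10. Both Torin arrays lay below both Ctrl arrays for 33 members and above them for 5, which was the case for 47.8% and 31.5% of all genes tested. Beside this, the summed T cell markers were 3.16 to 3.54 in Torin and 5.21 to 5.66 in Ctrl cells, and 2 neutrophil markers summed to 0.955 to 1.01 in Torin and 0.815 to 0.848 in Ctrl cells; their part in the result was not tested. Torin cells had the lowest group mean for 34 members and the highest for 6. The same count was not made over all genes, so it does not set the members apart. In RNA from whole cultures a smaller number of expressing cells and less RNA per cell cannot be told apart, and a change in the total RNA of a cell is not measured by signals set against their own array.

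**Figure D1:**
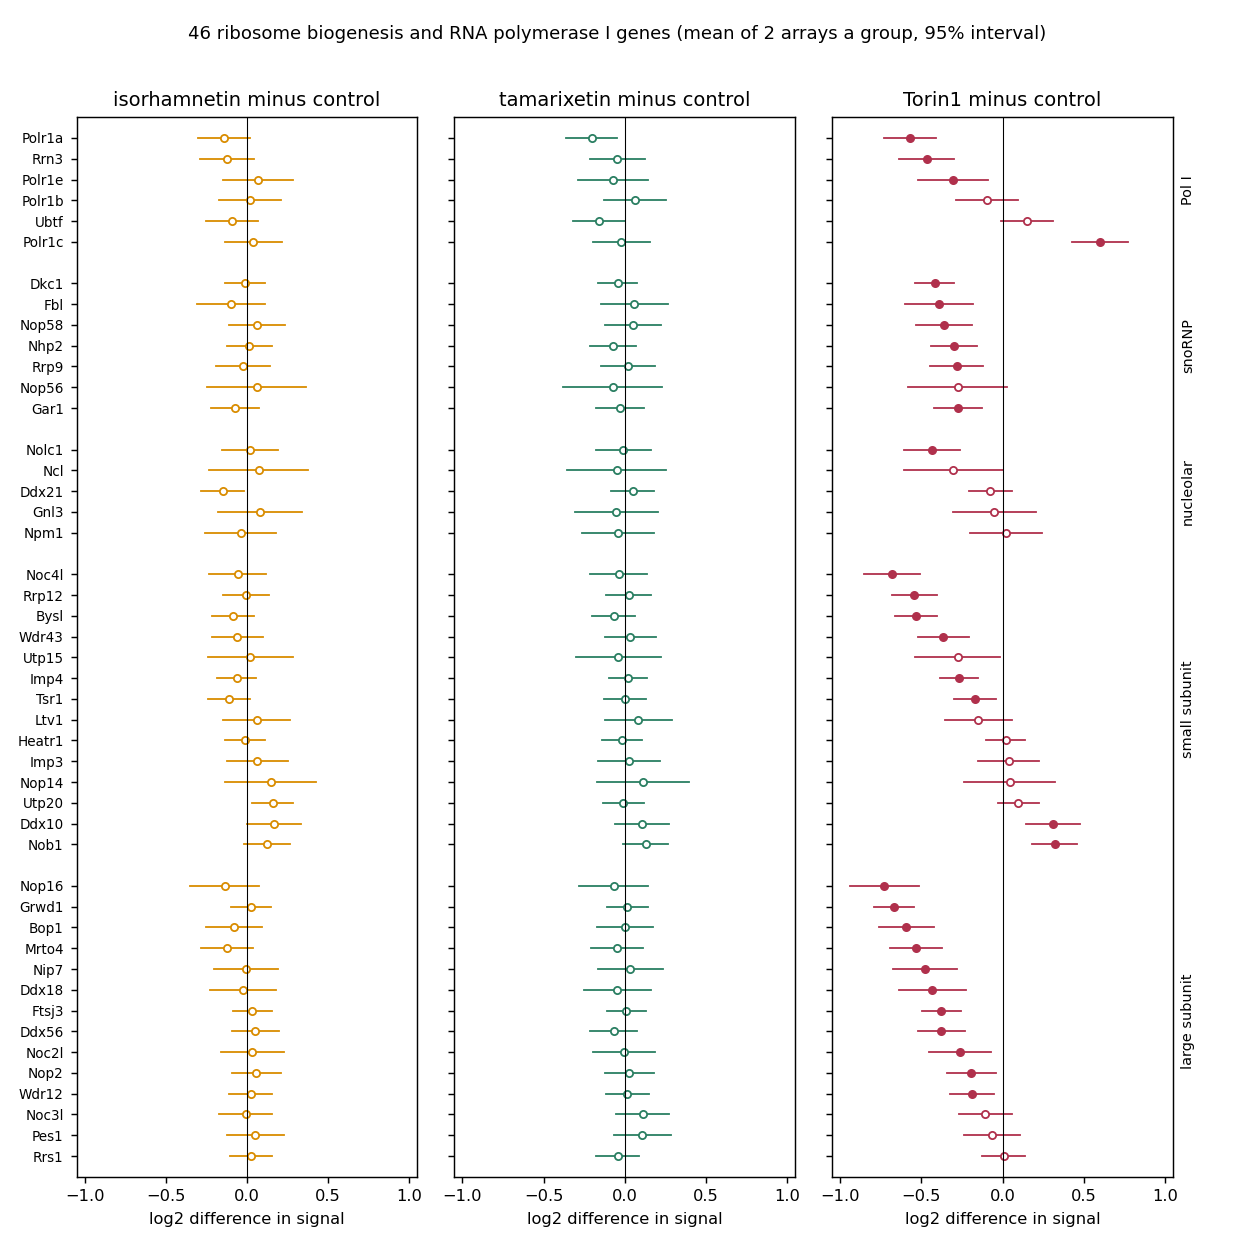
The log2 difference from control of each of the 46 members, with its 95% interval from limma, in cells given isorhamnetin (left), tamarixetin (middle) or Torin1 (right), 2 arrays a group. Filled points passed adjusted p under 0.05, and members are grouped by role and ordered by the Torin1 difference; 27 members are filled below 0 and 3 above it with Torin1, and none is filled with the flavonols.

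The size of these differences rested on the scaling. Setting each array against its median in place of its 75th percentile moved the median of all genes from -0.10 to -0.28 and that of the members to -0.46. Such a change shifts all genes by the same amount, so the gap of -0.18 under both scalings could not have differed. The split of member calls became 1 higher and 29 lower, where 11.7% of all genes were higher and 41.4% lower. Quantile normalization gave -0.06 for all genes and -0.11 for the members, a gap of -0.05. With it 9 members were higher and 18 lower, where 22.1% of all genes were higher and 28.1% lower. Without the filter on dim probes 17 members were called, 16 lower and 1 higher. Of the 45380 genes then tested, 8.74% were lower and 7.2% higher. Under 20 alternative settings 15 members were called lower in each setting in which they were measured and 1, Polr1c, was called higher in each. Not all of these settings could move the differences. The authors' deposited values differ from those used by little more than a constant for each probe. Leaving out an IR or TAM array changes only the errors of Torin minus Ctrl. A further 10 of the 16 members not called here were called in at least 1 setting and 6 in none, which were Polr1b, Ddx21, Gnl3, Nop14, Ltv1 and Noc3l.

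**Figure D2:**
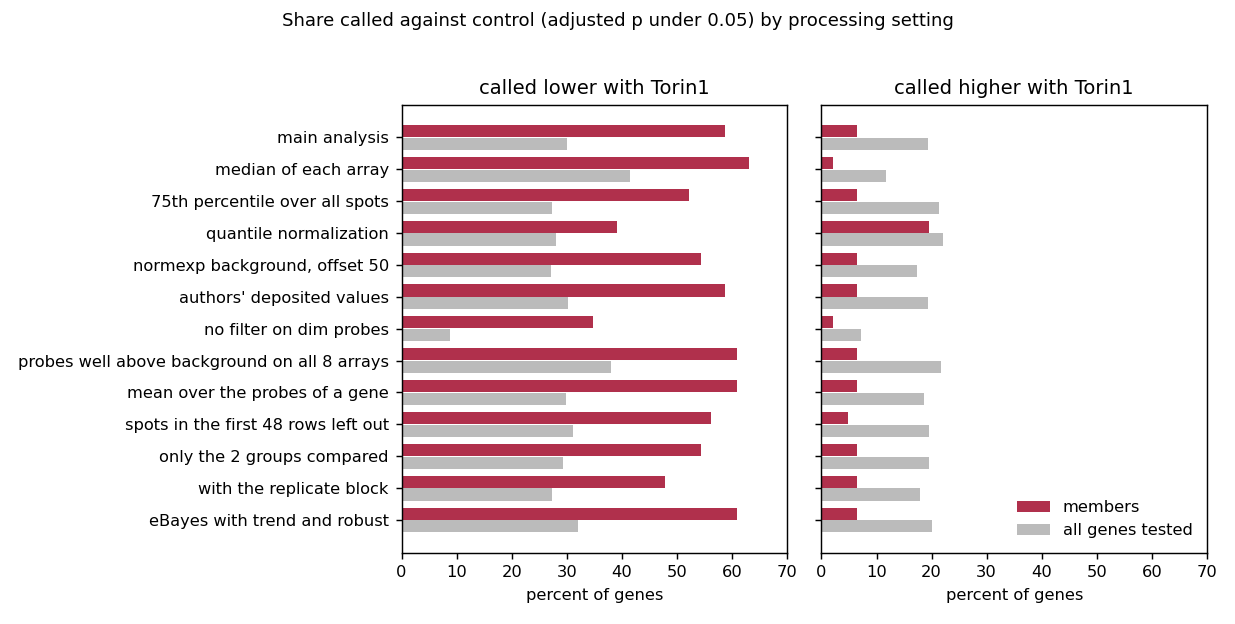
Percent of the measured members (red) and of all genes tested (grey) called lower (left) or higher (right) in Torin than in control cells, at adjusted p under 0.05, under the main analysis and 12 other settings. The members lie above all genes on the left and below them on the right in each setting drawn, with the smallest gaps under quantile normalization.

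Of the 6 genes of RNA polymerase I and its factors, 3 fell, 1 rose and 2 did not pass (50% lower and 16.7% higher, against 30.1% and 19.3% of all genes tested). Among genes at or above the level of the lowest member these shares were 40.2% and 17.6%. Polr1a, the largest subunit and part of the catalytic centre, had levels of 3.93 and 3.98 in IR, 3.95 and 3.84 in TAM and 3.48 and 3.57 in Torin cells, against 4.09 and 4.10 in Ctrl cells. Both Torin arrays lay below all others, and the IR and TAM arrays lay between them and the Ctrl arrays. The log2 difference of Torin minus Ctrl was -0.57 ± 0.06 (SE, limma adjusted p = 0.00133, 95% interval -0.73 to -0.41), a signal 0.673 times that of control. Rrn3, the factor that brings the polymerase to its promoter, had 3.74 and 3.70 in IR, 3.79 and 3.80 in TAM and 3.41 and 3.34 in Torin cells, against 3.77 and 3.92 in Ctrl cells. It was lowest on both Torin arrays and fell by 0.47 ± 0.07 on the log2 scale (adjusted p = 0.00302). Polr1e, a subunit that helps the polymerase bind Rrn3 and its promoter, had a difference of -0.31 ± 0.09 (adjusted p = 0.0308), a call lost on dropping any single Torin or Ctrl array (adjusted p from 0.0644 to 0.137) and with quantile normalization (-0.21, adjusted p = 0.0914).

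Polr1c ran the other way. This subunit, which RNA polymerases I and III share, had 4.45 and 4.48 in IR, 4.49 and 4.32 in TAM and 5.04 and 5.01 in Torin cells, against 4.45 and 4.40 in Ctrl cells. Both Torin arrays lay above the 6 others, among which the IR arrays lay just above the Ctrl arrays and the TAM arrays spanned both. The difference was 0.60 ± 0.07 (limma adjusted p = 0.00152, interval 0.42 to 0.77), or 1.52-fold, the largest rise among the members, and was 0.41 with the median of each array. A second probe gave 0.59 ± 0.11. Polr1b, the second largest subunit, gave -0.10 ± 0.08 and did not pass (adjusted p = 0.334, interval -0.29 to 0.09). Ubtf, the factor that binds and opens the ribosomal DNA promoter, had 7.84 and 7.94 in IR, 7.87 and 7.78 in TAM and 8.16 and 8.11 in Torin cells, against 7.95 and 8.02 in Ctrl cells. Its Torin arrays were highest, at a difference of 0.15 ± 0.06 (adjusted p = 0.105), but its other probe gave -0.16 ± 0.05, so the direction for this gene was not the same on both probes; quantile normalization gave 0.29 (adjusted p = 0.0352) and the array medians -0.04.

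**Figure D3:**
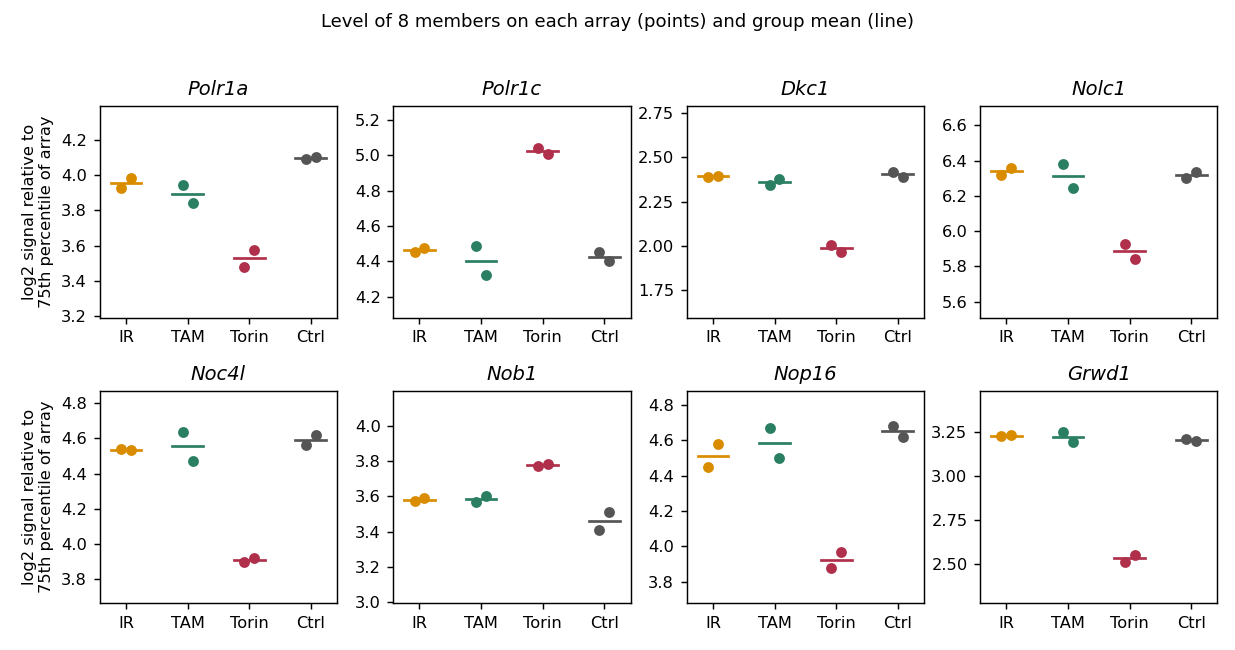
Levels of 8 members on each of the 8 arrays (points) with the mean of each group (lines), on the log2 scale used in the text; each panel spans the same range of log2 units. Both Torin arrays lie apart from the 6 others in every panel, above them for Polr1c and Nob1 and below them for the other members drawn.

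Of the 7 snoRNP proteins, 6 fell with Torin1 and 1 did not pass, with log2 differences of -0.42 to -0.27 and a median of -0.30. The share lower was 85.7%, against 30.1% of all genes tested and 40.2% of genes at or above the level of the lowest member. Dkc1, the pseudouridine synthase of the box H/ACA particles, had 2.39 and 2.39 in IR, 2.34 and 2.38 in TAM and 2.00 and 1.97 in Torin cells, against 2.42 and 2.39 in Ctrl cells. Both Torin arrays were lowest, the TAM arrays lay just below the IR and Ctrl arrays, and these last groups overlapped. Its difference was -0.42 ± 0.05 (limma adjusted p = 0.00152, 95% interval -0.54 to -0.30). Nhp2 and Gar1, core proteins of the same particles, gave -0.30 ± 0.06 and -0.27 ± 0.06 (adjusted p = 0.00783 and 0.013). Fbl, the methyltransferase of the box C/D particles, had 7.54 and 7.64 in IR, 7.80 and 7.69 in TAM and 7.26 and 7.34 in Torin cells, against 7.61 and 7.77 in Ctrl cells. Its Torin arrays were lowest, with a difference of -0.39 ± 0.08 (adjusted p = 0.012, interval -0.60 to -0.18), though the call was lost without Ctrl replicate 2 (-0.31, adjusted p = 0.0605) or Torin replicate 1 (-0.35, adjusted p = 0.0654) and with quantile normalization (-0.26, adjusted p = 0.0666).

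Nop58, which forms the core of the box C/D particles with Nop56, fell by 0.36 ± 0.07 (limma adjusted p = 0.00798), and Rrp9, a protein of the U3 particle, fell by 0.28 ± 0.07 (adjusted p = 0.0166). Nop56 itself had 6.85 and 6.59 in IR, 6.46 and 6.71 in TAM and 6.39 and 6.37 in Torin cells, against 6.61 and 6.72 in Ctrl cells. Its Torin arrays were again lowest, but the spread within IR and within TAM was wide. The difference of -0.28 ± 0.12 was close to that of Rrp9 and did not pass (adjusted p = 0.113); it passed with each array set against its median (-0.46, adjusted p = 0.00909). Without single arrays the calls of Rrp9 (3 arrays, Ctrl replicate 1 and both Torin replicates, adjusted p 0.0565 to 0.083) and Gar1 (Ctrl replicate 2 and Torin replicate 1, adjusted p 0.0661 to 0.0733) were lost, and quantile normalization took Gar1 to -0.05 and Rrp9 to -0.15. Without the filter on dim probes Dkc1 was the only snoRNP protein still called. Nop58 and Nhp2 (adjusted p = 0.0514 and 0.063) lost their calls there, as did Fbl, Rrp9 and Gar1.

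Of the 5 nucleolar chaperones and helicases, 1 fell and 4 did not pass. The share lower of 20% is below the 30.1% of all genes tested and the 40.2% of genes at or above the level of the lowest member. Nolc1, a chaperone of the snoRNPs, had 6.32 and 6.36 in IR, 6.38 and 6.24 in TAM and 5.93 and 5.84 in Torin cells, against 6.30 and 6.34 in Ctrl cells. Both Torin arrays were lowest and the other groups overlapped. The difference was -0.44 ± 0.07 (limma adjusted p = 0.00414, interval -0.61 to -0.27). Ncl, the abundant RNA-binding protein nucleolin, had 7.59 and 7.62 in IR, 7.66 and 7.31 in TAM and 7.21 and 7.25 in Torin cells, against 7.60 and 7.47 in Ctrl cells. TAM replicate 2 came close to the Torin arrays, which were lowest. The difference of -0.30 ± 0.12 did not pass (adjusted p = 0.0894, interval -0.61 to 0.00), passed when either TAM array was left out (adjusted p = 0.0194 each), and was 0.00 on the other probe (-0.00024 ± 0.08). Ddx21, an RNA helicase that also acts in RNA polymerase I transcription, gave -0.08 ± 0.05, Gnl3, the GTPase nucleostemin, -0.05 ± 0.10, and Npm1, the histone and ribosome chaperone nucleophosmin, 0.02 ± 0.09. Quantile normalization called Npm1 higher (0.15, adjusted p = 0.0298), and the array medians gave -0.16.

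In the small subunit group 6 of 14 fell, 2 rose and 6 did not pass, with a median of -0.16. These shares, 42.9% lower and 14.3% higher, are near the 40.2% and 17.6% of genes at or above the level of the lowest member. Of all genes tested, 30.1% were lower and 19.3% higher. Noc4l, a partner of Nop14 in the early precursor, had 4.54 and 4.53 in IR, 4.64 and 4.47 in TAM and 3.90 and 3.92 in Torin cells, against 4.56 and 4.62 in Ctrl cells. The Torin arrays lay more than 0.5 below every other array. The difference was -0.68 ± 0.07 (limma adjusted p = 0.00104, interval -0.86 to -0.51), a signal 0.623 times that of control. Rrp12, which takes part in the export of the precursor, had 4.64 and 4.61 in IR, 4.70 and 4.60 in TAM and 4.08 and 4.08 in Torin cells, against 4.61 and 4.64 in Ctrl cells. Again the 6 other arrays overlapped and both Torin arrays were lower, at a difference of -0.54 ± 0.06 (adjusted p = 0.00104, interval -0.68 to -0.40). Bysl, which binds the same late precursor, gave -0.53 ± 0.05 (adjusted p = 0.000893), Wdr43, a protein of the first assembly complex, -0.36 ± 0.06 (adjusted p = 0.00607), and Imp4 -0.27 ± 0.05 (adjusted p = 0.00625). Quantile normalization ended the calls of Wdr43 (-0.15, adjusted p = 0.0876) and Imp4 (-0.06, adjusted p = 0.265), and that of Imp4 was also lost without the filter on dim probes (adjusted p = 0.0672).

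Nob1 and Ddx10 rose with Torin1. Nob1, the nuclease that makes the last cut of the small subunit RNA, had 3.57 and 3.59 in IR, 3.57 and 3.60 in TAM and 3.77 and 3.79 in Torin cells, against 3.41 and 3.51 in Ctrl cells. The Torin arrays were highest and the IR and TAM arrays lay between them and the Ctrl arrays. The difference was 0.32 ± 0.06 (limma adjusted p = 0.00604), and 0.14 with each array set against its median (adjusted p = 0.28). Ddx10, a helicase whose yeast counterpart releases a guide RNA from the precursor, had 2.20 and 2.15 in IR, 2.13 and 2.11 in TAM and 2.39 and 2.25 in Torin cells, against 1.99 and 2.03 in Ctrl cells. The Torin arrays were highest, followed by the IR, the TAM and the Ctrl arrays, with no overlap between groups. The difference of 0.31 ± 0.07 (adjusted p = 0.012) lost its call without Ctrl replicate 1 (0.29, adjusted p = 0.0584) or Torin replicate 1 (0.24, adjusted p = 0.0607) and with each array set against its median (0.13, adjusted p = 0.349).

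The remaining small subunit members were close to the threshold or near 0. Tsr1, a GTPase-like factor of the late precursor, passed at -0.17 ± 0.05 (limma adjusted p = 0.0403) and was no longer called when any single array of the 8 was dropped (adjusted p from 0.0539 to 0.159). Utp15, of the complex that links transcription with assembly, gave -0.28 ± 0.10 and did not pass (adjusted p = 0.0743), though it was called under 3 alternatives. Ltv1, an export adaptor, gave -0.15 ± 0.08, Nop14 0.04 ± 0.11, Imp3, which pairs with Imp4, 0.04 ± 0.08, Heatr1 0.02 ± 0.05 and Utp20 0.10 ± 0.05. None of these 5 passed, and quantile normalization called Utp20 (0.23), Heatr1 (0.24) and Imp3 (0.17) higher, while the array medians turned them to -0.09, -0.17 and -0.15.

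Of the 14 large subunit factors, 11 were lower, 0 were higher and 3 did not pass, with a median of -0.38. The share lower was 78.6%, against 30.1% of all genes tested and 40.2% of genes at or above the level of the lowest member. The roles were not tested against each other. Nop16, a nucleolar assembly protein, had 4.45 and 4.58 in IR, 4.67 and 4.50 in TAM and 3.88 and 3.97 in Torin cells, against 4.68 and 4.62 in Ctrl cells. Its Torin arrays stood well below the rest and its IR arrays lay just below the Ctrl arrays. The difference of -0.73 ± 0.09 (limma adjusted p = 0.00151, interval -0.94 to -0.52) was the largest among the members and a signal 0.604 times that of control. Grwd1, a histone-binding protein of the early large subunit precursor, had 3.23 and 3.23 in IR, 3.25 and 3.19 in TAM and 2.52 and 2.55 in Torin cells, against 3.21 and 3.20 in Ctrl cells. Both Torin arrays were far below the 6 others, among which the IR arrays lay just above the Ctrl arrays and the TAM arrays overlapped both. At -0.67 ± 0.05 (interval -0.79 to -0.54) it had the smallest adjusted p among the members (0.000406), and its other probe gave -0.70 ± 0.13.

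Bop1, Pes1 and Wdr12 form 1 complex, PeBoW, that is needed to process the large subunit RNA, and the 3 gave unlike values. Bop1 had 5.15 and 5.01 in IR, 5.15 and 5.17 in TAM and 4.59 and 4.54 in Torin cells, against 5.12 and 5.20 in Ctrl cells, a difference of -0.59 ± 0.07 (limma adjusted p = 0.00149). Wdr12 gave -0.19 ± 0.05 (adjusted p = 0.0314), a call lost on dropping any single IR, Torin or Ctrl array (adjusted p from 0.0531 to 0.157) and with quantile normalization (-0.04). Pes1 had 5.69 and 5.60 in IR, 5.74 and 5.66 in TAM and 5.52 and 5.53 in Torin cells, against 5.53 and 5.65 in Ctrl cells. Its Torin arrays lay beside the lower Ctrl array, with a difference of -0.07 ± 0.07 (adjusted p = 0.477), although a dimmer probe of Pes1 gave -0.51 ± 0.16 and the mean over its probes was called lower. The differences among the 3 genes were not tested.

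Other large subunit factors that fell were Mrto4, related to a stalk protein of the ribosome (-0.53 ± 0.06, limma adjusted p = 0.00171), Nip7 (-0.48 ± 0.08, adjusted p = 0.00509), the helicases Ddx18 (-0.43 ± 0.08, adjusted p = 0.00806) and Ddx56 (-0.38 ± 0.06, adjusted p = 0.00376), and the methyltransferase Ftsj3 (-0.38 ± 0.05, adjusted p = 0.00199). These 5 were called in each alternative in which they were measured. Noc2l (-0.26 ± 0.08, adjusted p = 0.0349) and Nop2, a methyltransferase of the large subunit RNA (-0.19 ± 0.06, adjusted p = 0.0428), passed narrowly. Noc2l was no longer called on dropping any single Torin or Ctrl array (adjusted p from 0.0505 to 0.156), nor Nop2 on dropping any single IR, Torin or Ctrl array (adjusted p from 0.0594 to 0.149); with quantile normalization Nop2 gave 0.00, its sign turned. Noc3l, the partner of Noc2l, had 1.26 and 1.28 in IR, 1.42 and 1.36 in TAM and 1.15 and 1.19 in Torin cells, against 1.35 and 1.21 in Ctrl cells, which is a difference of -0.11 ± 0.07 that did not pass (adjusted p = 0.235). Rrs1, a factor that brings in a ribosomal subparticle, differed by 0.01 ± 0.05 (adjusted p = 0.937), and quantile normalization called it higher (0.18, adjusted p = 0.046).

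More than 1 probe was on the array for 21 members, with 31 probes beside those used. With Torin1, 26 of the 31 gave a difference of the same sign as the probe used and 5 the opposite sign. Those 5 belonged to Heatr1, Imp3, Npm1 and Ubtf, none of which was called. For the 13 members called lower that had other probes, all 21 of these were lower, and 17 passed adjusted p under 0.05 when all probes past the filter were tested with limma. Their differences lay between 0.41 below (-0.41) and 0.20 above that of the probe used. Among the other probes of members not called, 3 passed adjusted p under 0.05 in the same limma test.

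**Figure D4:**
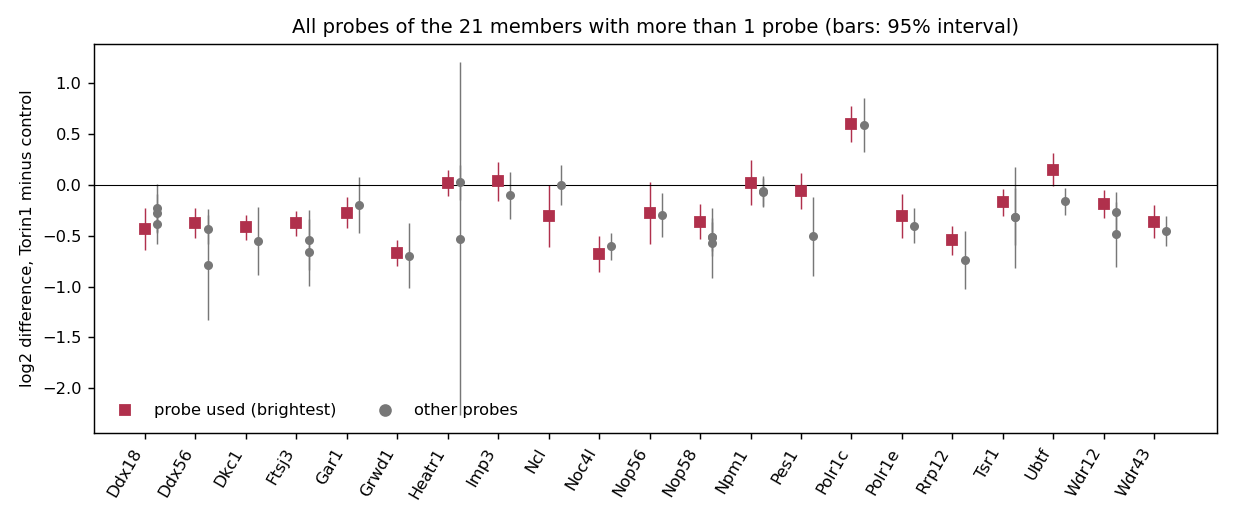
The log2 difference of Torin minus control for every probe of the 21 members with more than 1 probe, with 95% intervals from limma; red squares are the probes used, which were the brightest of their gene, and grey circles are the others. Other probes of members that fell lie below 0, and the probes of Heatr1, Imp3, Npm1 and Ubtf lie on both sides of it.

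A wider written list of the pathway held 139 further genes in 6 groups, all measured, against which the members can be set. The list of other RNA polymerase I genes includes subunits shared with other RNA polymerases, among them Polr2e, Polr2f, Polr2h, Polr2k and Polr2l. With Torin1, 13 of 17 other RNA polymerase I genes were called, 11 lower and 2 higher (64.7% and 11.8%, median -0.26). Of all genes tested, 30.1% were lower and 19.3% higher, and of genes at or above the level of the lowest member 40.2% and 17.6%. Cd3eap, a polymerase I subunit, had 2.67 and 2.72 in IR, 2.83 and 2.85 in TAM and 1.93 and 2.01 in Torin cells, against 2.89 and 2.92 in Ctrl cells, the lowest Torin1 difference in these lists at -0.94 ± 0.06 (limma adjusted p = 0.000212). Tcof1, which encodes the nucleolar protein treacle, fell by 0.79 ± 0.09 (adjusted p = 0.0012), and Taf1a and Taf1b, both of the selectivity factor for the ribosomal DNA promoter, went opposite ways at -0.62 ± 0.11 and 0.52 ± 0.06 (adjusted p = 0.00573 and 0.00155). The polymerase subunit Twistnb was higher by 0.20 ± 0.06 (adjusted p = 0.0319). Of 11 other snoRNP genes 7 fell and 0 rose (63.6% lower, median -0.23). The lowest were the assembly factor Znhit3 (-0.73 ± 0.07), the core protein Snu13 (-0.72 ± 0.06) and the ATPase Ruvbl2 (-0.67 ± 0.09).

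Among 44 other small subunit genes 19 fell and 4 rose (43.2% and 9.09%, median -0.17), with Emg1 (-0.44 ± 0.05), Ddx47 (-0.43 ± 0.12) and Wdr46 (-0.39 ± 0.07) lowest and Utp14a (0.44 ± 0.07), Tsr2 (0.43 ± 0.08) and the kinase Riok3 (0.32 ± 0.06) highest of those called. The 42 other large subunit genes gave 19 lower and 5 higher (45.2% and 11.9%, median -0.16). The shares lower in both lists are near the 40.2% of genes at or above the level of the lowest member. Of all genes tested, 30.1% were lower and 19.3% higher. Rrp8 (-0.67 ± 0.09), Efl1, a GTPase that frees the new subunit (-0.61 ± 0.08), and Rpf2 (-0.58 ± 0.06) were lowest. Zfp622, whose yeast counterparts act late on the cytoplasmic large subunit, had 6.17 and 6.06 in IR, 6.22 and 6.03 in TAM and 7.04 and 6.98 in Torin cells, against 6.06 and 6.24 in Ctrl cells, and rose by 0.86 ± 0.10 (limma adjusted p = 0.00138), the largest rise in these lists. Nop53 (0.25 ± 0.06) and Sbds, the partner of Efl1 (0.23 ± 0.06), also rose.

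The exosome, which trims and degrades RNA, had 10 of 14 genes lower and 0 higher (71.4% lower, against 30.1% of all genes tested, median -0.36). The lowest were Mphosph6 (-0.67 ± 0.10), Exosc8 (-0.51 ± 0.05) and the nuclease Dis3 (-0.46 ± 0.06). Of 11 subunits of RNA polymerase III, 4 fell and 1 rose (36.4% and 9.09%, median -0.08). This share lower lies between the 30.1% of all genes tested and the 40.2% of genes at or above the level of the lowest member. Polr3k (-0.68 ± 0.06), Crcp (-0.54 ± 0.09) and Polr3g (-0.48 ± 0.07) were lower and Polr3b (0.38 ± 0.06) higher. Leaving out RNA polymerase III, 66 of 128 further pathway genes were lower and 11 higher, with a median of -0.22, against 27 of 46 and 3 of 46 with a median of -0.28 for the members, and 30.1% and 19.3% of all genes tested.

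**Figure D5:**
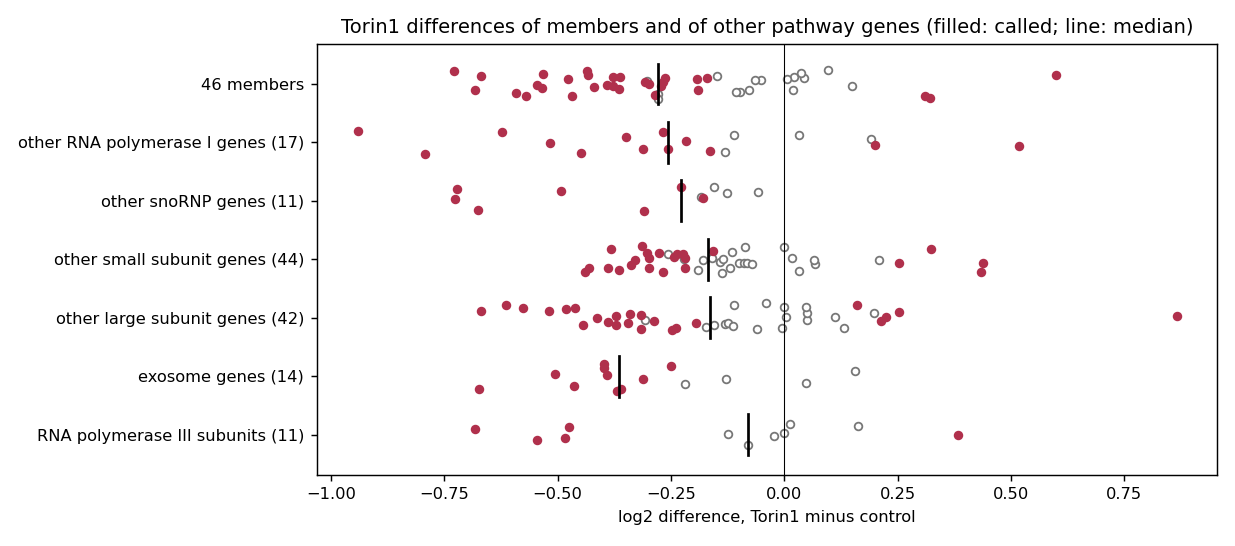
The log2 difference of Torin minus control for each of the 46 members and of the 139 further pathway genes, in rows by list with the number of genes in brackets; filled points passed adjusted p under 0.05 and black bars are medians. Medians lie below 0 in every row, between -0.36 for the exosome and -0.08 for RNA polymerase III, and Zfp622 stands apart at 0.86.

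With isorhamnetin, 0 of the 46 members were called against control (limma adjusted p under 0.05), where 0.543% of all genes tested were. At an unadjusted p under 0.05 there were 3, namely Utp20, Ddx10 and Ddx21, where 15.4% of all genes passed. The median was 0.02, with 24 members above 0 and 22 below. Both IR arrays lay above both Ctrl arrays for 8 members and below them for 11, against 25.7% and 24% of all genes. The largest difference was that of Ddx10, at 0.17 ± 0.07 (adjusted p = 0.323), and the largest negative one that of Ddx21, which had 5.38 and 5.38 in IR, against 5.52 and 5.55 in Ctrl cells (-0.15 ± 0.05, adjusted p = 0.275). Both IR arrays of Ddx21 lay below every other array. Utp20, a scaffold protein of the small subunit precursor, had 3.18 and 3.22 in IR, against 3.03 and 3.05 in Ctrl cells, and the smallest adjusted p (0.16 ± 0.05, adjusted p = 0.242). In the other roles the largest differences were -0.14 ± 0.06 for Polr1a, -0.10 ± 0.08 for Fbl and -0.14 ± 0.09 for Nop16. All 46 intervals of 95% lay within 0.5 of 0, the lowest bound being -0.35 (Nop16) and the highest 0.43 (Nop14).

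With tamarixetin, 0 of the 46 were called against control (limma adjusted p under 0.05), where 0.079% of all genes were. At an unadjusted p under 0.05 only Polr1a passed, where 14.3% of all genes did. It had 3.95 and 3.84 in TAM cells, against 4.09 and 4.10 in Ctrl cells, a difference of -0.20 ± 0.06 without overlap (adjusted p = 0.275). The median of the members was -0.01, with 21 above 0 and 25 below, and TAM arrays lay above Ctrl arrays for 4 members and below for 6, against 13.9% and 33% of all genes. The largest differences of the other roles were -0.07 ± 0.12 for Nop56, -0.05 ± 0.10 for Gnl3, 0.13 ± 0.06 for Nob1 and 0.11 ± 0.07 for Noc3l. All 46 intervals lay within 0.5 of 0, from -0.38 (Nop56) to 0.39 (Nop14). For both flavonols the number of calls among the members was 0 in each of the 20 alternatives.

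Isorhamnetin and tamarixetin, given at the same dose for the same time, were then compared with each other. None of the 46 members was called (0 of 46, limma adjusted p under 0.05), against 0.827% of all genes tested, and 2 passed an unadjusted p under 0.05, against 13.3%. IR arrays lay above TAM arrays for 8 members and below them for 9, against 30.6% and 11.8% of all genes. The median of IR minus TAM was 0.01. The largest difference was that of Ddx21, with 5.38 and 5.38 in IR and 5.62 and 5.54 in TAM cells (-0.20 ± 0.05, adjusted p = 0.213). Next came Utp20, with 3.18 and 3.22 in IR and 3.05 and 3.02 in TAM cells (0.17 ± 0.05, adjusted p = 0.263), and Fbl, with 7.54 and 7.64 in IR and 7.80 and 7.69 in TAM cells (-0.16 ± 0.08, adjusted p = 0.498). The arrays of these 3 genes did not overlap between the isomers. All 46 intervals lay within 0.5 of 0, from -0.36 (Fbl) to 0.44 (Nop56), which bounds how far the isomers may differ in these genes and does not show that they act alike. The isomers share an equal dose and time, but the Torin1 dose differs.

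Against Torin1 both flavonols stood much where the controls did. In IR minus Torin, 29 of 46 members were called, against 42.2% of all genes tested, with 26 higher in IR (26.6% of all genes) and 3 lower (15.6%), and the median was 0.30. In TAM minus Torin, 30 of 46 were called, against 43.2%, with 27 higher in TAM (24.1%) and 3 lower (19.1%), and the median was 0.24. These comparisons use the same Torin arrays as the one with control and are not independent of it. The widest gap in either was that of Grwd1, at 0.69 ± 0.05 for IR and 0.69 ± 0.05 for TAM (limma adjusted p = 0.000411 and 0.000418). Noc4l gave 0.63 and 0.64, Nop16 0.59 and 0.66, and Rrp12 0.54 and 0.57. Polr1c was lower in both, by -0.56 and -0.62, and so was Ubtf, by -0.24 and -0.31 (adjusted p = 0.0302 and 0.0124). Nob1 was the other member lower in both, at -0.20 and -0.19 (adjusted p = 0.0365 and 0.0382). Doses of the flavonols and of Torin1 were not matched, so these values compare the cultures as treated. Without single arrays the calls in IR minus Torin were 17 without either Torin array and 18 without either IR array, and those in TAM minus Torin as few as 19 (without Torin replicate 1).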

How the data were processed

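RNA of 8 samples was measured on 1-colour Agilent arrays. Per the file headers, Agilent Feature Extraction 10.7.1.1 read all arrays from 1 slide in 1 scan, and the deposited processed signal is an intensity. The values the authors deposited are in log2 units; log2 processed signal minus the 75th percentile of the array and the median of the probe gave it within 0.01 for 100% of 56282 probes. Here outlier spots were dropped (323 probes lost), spots of a probe averaged and each array's 75th percentile over 56605 probes subtracted. A probe was kept if some group had it well above background on each of its arrays (27562). Symbols came from RefSeq accessions (GRCm38.p6, names and start-site windows only; 32994 probes matched, 23611 did not; 3 pathway genes under older symbols), and the brightest probe of a gene was used. The header names build mm9, so no array coordinates are given. R 4.3.3 and limma 3.58.1 (lmFit, eBayes) fitted all 8 arrays, with 4 residual degrees of freedom and Benjamini-Hochberg adjustment over 21528 genes. The script was tested on simulated data. With 2 arrays a group an exact permutation test cannot pass 0.05, and the number of arrays limits the precision. Members and gene lists were chosen with earlier results of these data known, so counts over them carry no p. The members described in full are, by role, the 2 largest in Torin minus Ctrl and the largest in each flavonol comparison, plus the 3 largest in IR minus TAM; of the further pathway lists, up to 3 called genes per direction. Other members are given because the lists are about them, and the printed start-site sequences and the PeBoW genes were chosen after values were seen. Alternatives were other scalings, background, filter, probe rule, spread, samples in the fit, a replicate block and leaving out each array. Sequences of probes and proteins are not used here.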

Additional observations from a re-analysis of the deposited data

How the results depend on the processing

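Each comparison was recomputed under 20 alternatives, of which the 75th percentile over all spots was added after seeing the data. The authors' deposited values could hardly move a difference, and leaving out an array of a group not compared changes only the errors. The counts of 0 for IR minus Ctrl, TAM minus Ctrl and IR minus TAM were 0 in all of them. For Torin minus Ctrl the call count was 17 without a filter on dim probes (1 higher, 16 lower). There 45380 genes were tested, of which 7.2% were higher and 8.74% lower. TAM minus Torin gave 16 without the filter (15 higher, 1 lower), against 6.48% and 5.83% of those genes. Median log2 differences of the members moved by more than the spread between replicates as follows. With the median of each array they were -0.0406 (IR minus Ctrl), -0.0815 (TAM minus Ctrl), -0.46 (Torin minus Ctrl), 0.42 (IR minus Torin) and 0.35 (TAM minus Torin). With quantile normalization they were 0.0418 (TAM minus Ctrl), -0.11 (Torin minus Ctrl), 0.13 (IR minus Torin) and 0.17 (TAM minus Torin). With the percentile over all spots they were -0.24 (Torin minus Ctrl), 0.25 (IR minus Torin) and 0.22 (TAM minus Torin). With normexp they were 0.0388 (TAM minus Ctrl), -0.0216 (IR minus TAM) and 0.26 (IR minus Torin). The mean over probes gave 0.29 (TAM minus Torin), and leaving out the first 48 rows, with 41 members measured, gave 0.26 (IR minus Torin). Leaving out single arrays gave medians of -0.0104 to 0.018 (IR minus Ctrl), -0.0251 to 0.0224 (TAM minus Ctrl), -0.30 to -0.25 (Torin minus Ctrl), -0.0194 to 0.0175 (IR minus TAM), 0.25 to 0.30 (IR minus Torin) and 0.20 to 0.29 (TAM minus Torin), with 17 to 29 calls in IR minus Torin and 19 to 27 in TAM minus Torin. Nop2 was 0.0042 in Torin minus Ctrl with quantile normalization, against -0.19 in the analysis reported and -0.38 with the array medians; the cause was not tested. Without single arrays 9 members lost their Torin1 call (adjusted p 0.0505 to 0.159) and 1, Ncl, gained one. A fit with the replicate block gave 25 calls in Torin minus Ctrl (3 higher, 22 lower), where 17.9% of all genes were higher and 27.3% lower. Deviations of same-numbered arrays correlated at -0.13 to 0.08, so the numbers were not taken to pair the samples. A group with 1 array left was assumed to vary like the others. With 2 arrays a group, differences within the intervals given could not be resolved, and the slide position of the groups cannot be told apart from the treatments.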
